A study of Mus musculus with 9 samples.

Results

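The insulin-like growth factor (IGF) system was followed through 10 genes of a table of 55401 gene rows: the ligands Igf1 and Igf2, the receptors Igf1r and Igf2r, and the binding proteins Igfbp2, Igfbp3, Igfbp4, Igfbp5, Igfbp6 and Igfbp7. They were taken by gene symbol, and none of the 10 symbols was repeated in the table. Their RNA was sequenced in whole hearts of 3 groups, with 3 libraries in each. Control libraries came from wild-type (WT) mice that had a sham operation according to the design, and their titles give no time. TAC libraries came from WT mice with transverse aortic constriction, which narrows the aorta by surgery and makes the left ventricle pump against higher pressure, and their titles give 12 weeks. KO-TAC libraries, with the same operation and time, came from c-Myc flox/flox;Tcf21 iCre mice, whose tamoxifen-activated Cre is driven by Tcf21, a fibroblast gene in the heart, and removes Myc there. Mice were male and 8 to 12 weeks old when operated on. The design gives tamoxifen (45 mg/kg, 5 days) for activating Cre and does not say if WT mice had it. A knockout group without TAC and a group with Cre alone were not analysed here, so effects of Cre or tamoxifen and of Myc loss cannot be told apart. The labels number the libraries without naming separate animals, and p-values then measure only the spread between these samples, which may be technical.

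Igf1 and Igf2 are small secreted proteins related to insulin. Both signal through Igf1r, a tyrosine kinase receptor that drives growth and survival, including hypertrophic growth of heart muscle cells. Igf2r, also the mannose 6-phosphate receptor of lysosomal enzyme transport, takes up Igf2 for degradation and so removes it. The binding proteins hold IGFs in the tissue and circulation, prolong their life there and either block or deliver them to the receptor. Igfbp7 binds IGFs only weakly and is secreted by vessel cells and fibroblasts. In the heart, fibroblasts, endothelial cells and macrophages are the usual sources of these secreted proteins, while Igf1r is on most cell types.

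The library totals ran from 59702513 to 109162107 counts. Levels are in CPM, which are counts relative to the library total after TMM scaling, and fold changes come from an edgeR quasi-likelihood fit to all 9 libraries. Of the 10 members 9 had enough counts to be tested. Myc, the targeted gene, was at 1.55 to 2.47 CPM in control, 6.22 to 14.2 CPM in TAC and 1.87 to 4.75 CPM in KO-TAC hearts, each KO-TAC heart below each TAC heart (log2 difference -1.44, SE 0.41; edgeR adjusted p = 0.555). TAC replicate 2 lay near the control hearts and TAC replicate 3 far from them. Results resting on either are given with and without it where its loss changes a call or moves a called value by over 1.5 times. Both hearts were picked out by these same values. Leaving out the TAC heart nearest to control favours lower p-values, so passes without TAC replicate 2 are a description and not support. The 8 cardiomyocyte markers (Myh6, Ttn and others) summed to at least 11466 CPM in each heart. Markers of neutrophils, lymphocytes, adipocytes, lung and liver summed to at most 10.2, 5.25, 1.26, 0.788 and 1.33 CPM, with Ly6g, Lep and Scgb1a1 at 3 counts or fewer in each library. Epicardial markers summed to 7.34 to 16.2 CPM in control, 24.4 to 27.5 CPM in TAC and 5.69 to 12.4 CPM in KO-TAC hearts. Skeletal muscle markers, which include Ckm of the heart, summed to at most 1615 CPM.

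The promoter sequences of 5 members are shown because the results turn on these genes: Igfbp3, Igfbp6 and Igfbp7 were high in the same TAC hearts, Igf2r was low in them, and Igfbp5 did neither. Each is the 250 bases before the RefSeq start site (GRCm38.p6), written 5′ to 3′ on the strand of the gene. Capitals mark matches, on either strand, to any of 6 short motifs. CACGTG is the E-box of Myc and Max. TGANTCA is the AP-1 site. GGGCGG is the GC box of Sp1. TATAAA is the TATA box. GGAATG is the TEAD site. GTCTG is the SMAD box. No motif overlaps another in these windows.
Igfbp3 (chr11:7213924-7214173, minus strand): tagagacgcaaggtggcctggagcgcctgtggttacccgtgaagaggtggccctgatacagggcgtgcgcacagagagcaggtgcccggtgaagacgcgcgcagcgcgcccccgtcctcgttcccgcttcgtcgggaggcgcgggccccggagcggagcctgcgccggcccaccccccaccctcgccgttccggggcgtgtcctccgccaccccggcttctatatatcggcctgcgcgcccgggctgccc
Igfbp6 (chr15:102143936-102144185, plus strand): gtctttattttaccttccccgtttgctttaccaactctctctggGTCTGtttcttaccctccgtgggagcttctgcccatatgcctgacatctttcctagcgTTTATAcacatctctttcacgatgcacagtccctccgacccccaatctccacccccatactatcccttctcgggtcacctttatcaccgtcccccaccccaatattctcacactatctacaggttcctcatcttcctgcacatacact
Igfbp7 (chr5:77408046-77408295, minus strand): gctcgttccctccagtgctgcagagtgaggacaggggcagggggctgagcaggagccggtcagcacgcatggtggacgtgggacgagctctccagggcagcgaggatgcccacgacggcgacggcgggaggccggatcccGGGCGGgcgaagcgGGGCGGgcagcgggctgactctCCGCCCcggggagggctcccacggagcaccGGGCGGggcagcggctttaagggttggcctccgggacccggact
Igf2r (chr17:12769707-12769956, minus strand): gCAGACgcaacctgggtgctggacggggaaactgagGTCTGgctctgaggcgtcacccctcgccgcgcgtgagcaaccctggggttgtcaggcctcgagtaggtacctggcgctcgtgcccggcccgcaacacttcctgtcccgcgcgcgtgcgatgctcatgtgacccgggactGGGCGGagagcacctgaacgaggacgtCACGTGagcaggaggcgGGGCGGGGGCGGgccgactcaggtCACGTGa
Igfbp5 (chr1:72874866-72875115, minus strand): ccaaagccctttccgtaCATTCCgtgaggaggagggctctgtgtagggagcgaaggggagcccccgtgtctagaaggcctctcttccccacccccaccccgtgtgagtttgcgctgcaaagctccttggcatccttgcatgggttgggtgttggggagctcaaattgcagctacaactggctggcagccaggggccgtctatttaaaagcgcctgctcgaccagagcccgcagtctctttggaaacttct

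Igf2r was the member of these 5 with an E-box, at -48 to -43 and again at -7 to -2 from the start, and it also held 3 GC boxes and 2 SMAD boxes. Igfbp2, whose promoter is not shown, held an E-box too, at -142 to -137. Igfbp7 held 4 GC boxes and none of the other motifs. Igfbp3 held none of the 6 motifs in this window, while Igfbp6 held a SMAD box and a TATA box on the opposite strand, and Igfbp5 a TEAD match. Among 32536 promoter windows of the same length, 6.04% held the E-box, 6.73% the AP-1 site, 33% the GC box, 12.3% the TATA box, 12.6% the TEAD site and 42.2% the SMAD box. These are matches of letters, and no binding was measured. The windows differed in base composition, with 73.2% G and C in Igfbp3, 74% in Igfbp7 and 49.6% in Igfbp6.

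In control hearts the members spanned a wide range of levels. Levels between genes are compared as CPM per kb of exon, which reduces the effect of transcript length. The divisor is the length of all annotated exons of a gene, not of the transcripts present. For Igf1r it was 16.8 kb, against 11.4 kb in its longest transcript, so ratios between genes depend on this choice. Igfbp7 stood highest at 69.7 ± 5.37 CPM per kb (SD, n = 3). Igf2r followed at 24.7 ± 0.802, Igfbp5 at 15.3 ± 0.138, Igfbp4 at 12.3 ± 0.652, Igfbp6 at 9.35 ± 1.91 and Igfbp3 at 5.58 ± 1.22 CPM per kb. The ligands and the signalling receptor were lowest among the clearly expressed members, with Igf2 at 2.96 ± 0.871, Igf1r at 1.89 ± 0.0845 and Igf1 at 1.12 ± 0.0639 CPM per kb. No neighbours in this order overlapped over the 3 control hearts. In TAC hearts Igfbp7 was still highest at 358 ± 277 CPM per kb and Igfbp6 came next at 44.6 ± 24.9, but Igfbp6, Igfbp4, Igfbp3, Igfbp5 and Igf2r formed a chain in which each range overlapped with that of the next gene. In KO-TAC hearts the place below Igfbp7 (148 ± 69 CPM per kb) was held by Igfbp5 at 29.1 ± 10.6, whose range overlapped with that of Igfbp6 at 24.2 ± 13.

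**Figure D1:**
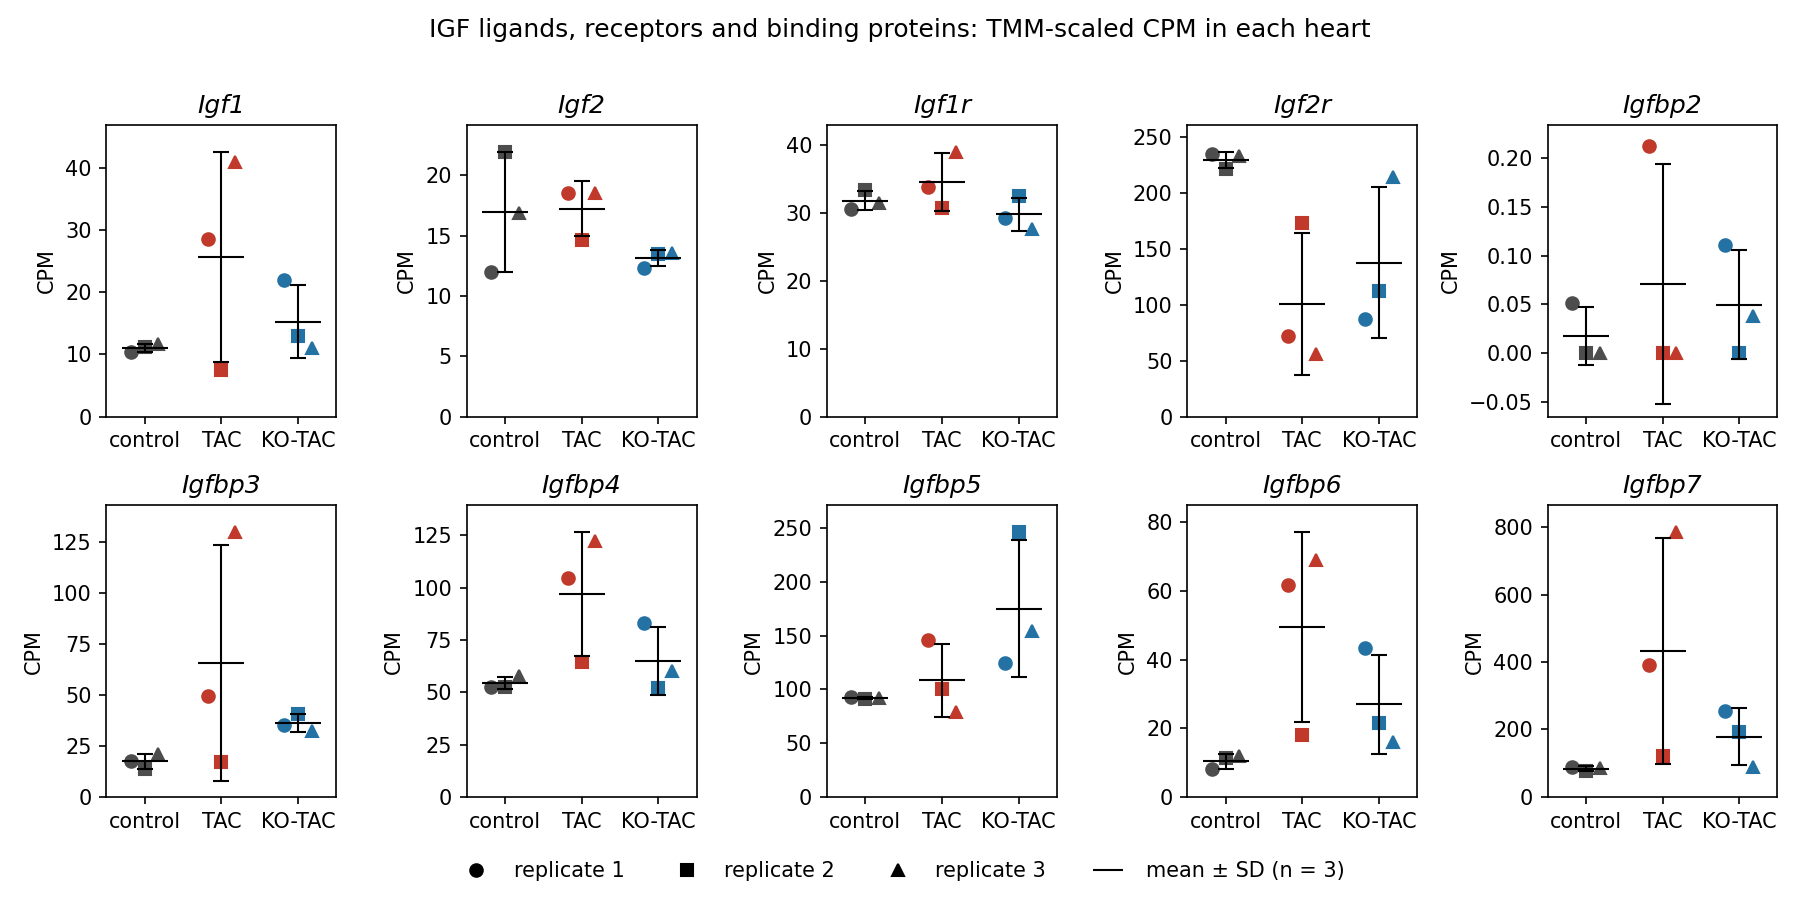
CPM (y axis, linear, TMM-scaled) of each of the 10 members in each heart, by group on the x axis. Points are hearts, with the shape giving the replicate number, and black lines are the mean ± SD of 3 hearts. TAC replicate 3 was highest in Igf1, Igfbp3, Igfbp4, Igfbp6 and Igfbp7 and lowest in Igf2r, while Igfbp5 was highest in KO-TAC replicate 2 at 247 CPM. The lower end of the SD bars of Igfbp2 falls below 0 because its counts were 0 in 5 of 9 hearts.

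The comparison of TAC with control asked how these transcripts differ in WT hearts under pressure overload. Igfbp6, Igfbp7 and Igfbp3 showed the largest differences, 4.77-fold, 5.13-fold and 3.76-fold higher on average, Igf1 was 2.32-fold higher and Igfbp4 1.79-fold higher. Igf2r was 2.28-fold lower. In the edgeR fit Igf2, Igf1r and Igfbp5 were close to their control levels. By value 8 of the 9 tested members were higher, with a median log2 difference of 0.84, beside 0.03 over all 19051 genes tested. None passed adjustment over all genes (edgeR adjusted p under 0.05), as 0% of all genes did. At an unadjusted p under 0.05 there were 6 members (Igf1, Igf2r, Igfbp3, Igfbp4, Igfbp6 and Igfbp7), where 21.3% of all genes reached it. DESeq2 called Igfbp3, Igfbp6 and Igfbp7 (7.61% of the genes it tested). Limma-voom with quality weights called 7 of 9 members (38% of genes), these 3 with Igf1, Igf2r, Igfbp4 and Igfbp5. Without TAC replicate 2 the edgeR fit called 6 members, the same 6 genes as at the unadjusted p, beside 27.5% of all genes. By groups that did not overlap, 3 members were higher in each TAC heart than in any control heart (Igfbp4, Igfbp6 and Igfbp7) beside 14.1% of all genes, and 1 was lower (Igf2r) beside 14% of genes.

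Igf1 (chromosome 10, 87858265 to 87937042, GRCm38) was at 10.4, 11.2 and 11.7 CPM in the 3 control hearts and at 28.6, 7.58 and 41 CPM in TAC replicates 1, 2 and 3. The control hearts were nearly alike, and the TAC hearts spread from below all of them to far above them, so the groups overlapped. The log2 difference was 1.22 (SE 0.51, 95% interval 0.08 to 2.35; edgeR adjusted p = 0.217), and without TAC replicate 2 it was 1.64 (edgeR adjusted p = 0.0109). Without TAC replicate 3 the log2 difference of Igf1 was 0.69. Igf1 is made in many tissues under growth hormone and locally in injured or loaded muscle. Igf1os, an antisense gene that shares no exon base with Igf1, had 61 counts in all 9 libraries against 13452 for Igf1. The RNA is of whole hearts, so more cells of a type and more RNA per cell cannot be told apart for this or any other member.

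Igf2 (chromosome 7, 142650766 to 142666816), the fetal growth factor expressed from the paternal allele, was at 12, 22 and 16.9 CPM in control and 18.5, 14.6 and 18.5 CPM in TAC hearts. The TAC hearts lay within the control range. The log2 difference was 0.03 (SE 0.23, 95% interval -0.48 to 0.53; edgeR adjusted p = 0.956). The deposited table counts Igf2 apart from Gm49394, a gene model that shares 62.8% of the exon bases of Igf2 and had 0 counts. Where reads are shared with an overlapping model the value of Igf2 is uncertain.

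Igf1r (chromosome 7, 67952827 to 68233668) varied least over the 9 hearts, with a root mean square deviation of 0.135 on the log2 scale. Its level was 30.6, 33.4 and 31.4 CPM in control and 33.9, 30.7 and 39 CPM in TAC hearts, with overlapping groups. Igf1r differed by 0.12 on the log2 scale (SE 0.16, 95% interval -0.24 to 0.48; edgeR adjusted p = 0.675).

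Igf2r (chromosome 17, 12682406 to 12769664) was lower in TAC. It was at 235, 221 and 233 CPM in control hearts and at 71.7, 174 and 56.4 CPM in TAC hearts. Each TAC heart was below each control heart, and TAC replicates 1 and 3 were far below. On the log2 scale Igf2r differed by -1.19 (SE 0.46, 95% interval -2.23 to -0.16; edgeR adjusted p = 0.196), and without TAC replicate 2 Igf2r was 3.6-fold lower (edgeR adjusted p = 0.0132). Without TAC replicate 3 its log2 difference was -0.91. Airn, the antisense transcript that crosses the Igf2r promoter, shares no exon base with Igf2r and was at 8.38 ± 2.91 CPM in control and 8.58 ± 3.73 CPM in TAC hearts (n = 3). Per length, Igf2r stood 13.8, 11.9 and 13.4 times above Igf1r in the control hearts and 3.82, 10.2 and 2.6 times above it in TAC replicates 1, 2 and 3. The receptor ratio was therefore lower in each TAC heart than in any control heart.

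Igfbp7 (chromosome 5, 77349240 to 77408041) was at 89.3, 76.9 and 86.5 CPM in control hearts and at 390, 120 and 786 CPM in TAC hearts. Each TAC heart was above each control heart, with TAC replicate 2 only slightly so. Igfbp7 differed by 2.36 on the log2 scale (SE 0.62, 95% interval 0.97 to 3.75; edgeR adjusted p = 0.136, DESeq2 adjusted p = 0.00285). Without TAC replicate 3 the fold was 3 in place of 5.13, and without TAC replicate 2 it was 6.95 (edgeR adjusted p = 0.0101). The gene shares 7.03% of its exon bases with Polr2b on the opposite strand, whose level was lower in TAC (28.1 ± 13.5 CPM) than in control hearts (50.7 ± 3.1 CPM, n = 3), and no source used here gives the strand setting of the counting.

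Igfbp6 (chromosome 15, 102144362 to 102149511), which prefers Igf2 over Igf1, was at 7.99, 11.2 and 12 CPM in control and 61.7, 17.9 and 69.1 CPM in TAC hearts. All TAC hearts were above all control hearts. Its log2 difference was 2.25 (SE 0.52, 95% interval 1.08 to 3.42; edgeR adjusted p = 0.135, DESeq2 adjusted p = 0.00145). This was the lowest edgeR adjusted p of the 9 members. Leaving out any heart of the 9 kept the log2 difference between 1.92 and 2.65. The call did change, as Igfbp6 passed in edgeR without TAC replicate 2 but not with all 9 hearts.

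Igfbp3 (chromosome 11, 7206086 to 7213923), the main carrier of IGFs in blood, was at 17.8, 13.5 and 21.1 CPM in control and 49.6, 17.3 and 130 CPM in TAC hearts. TAC replicate 2 lay inside the control range, so the groups overlapped. Igfbp3 differed by 1.91 on the log2 scale (SE 0.58, 95% interval 0.62 to 3.2; edgeR adjusted p = 0.148, DESeq2 adjusted p = 0.0175). Without TAC replicate 3 the fold was 1.9 in place of 3.76, and without TAC replicate 2 it was 5.12 (edgeR adjusted p = 0.00959).

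Igfbp4 (chromosome 11, 99041244 to 99054392), an inhibitor of IGF action that the protease Pappa cleaves, was at 52.6, 52.6 and 57.6 CPM in control and 105, 64.5 and 122 CPM in TAC hearts. All TAC hearts were above all control hearts. The log2 difference was 0.84 (SE 0.27, 95% interval 0.22 to 1.45; edgeR adjusted p = 0.161), and without TAC replicate 2 it was 1.06 (edgeR adjusted p = 0.0138). Without TAC replicate 3 the log2 difference of Igfbp4 was 0.63. Igfbp5 (chromosome 1, 72857932 to 72874884), a binding protein that also attaches to the extracellular matrix, was at 92.6, 91 and 92 CPM in control and 146, 100 and 78.8 CPM in TAC hearts. TAC replicate 3, the highest heart for Igfbp3, Igfbp4, Igfbp6 and Igfbp7, was the lowest of all 9 hearts for Igfbp5. The log2 difference of Igfbp5 was 0.24 (SE 0.31, 95% interval -0.46 to 0.94; edgeR adjusted p = 0.666), and without TAC replicate 1 it was -0.04. Limma-voom with quality weights gave 0.58 and called Igfbp5 as higher (limma-voom adjusted p = 0.0367), as it called 38% of genes.

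Igfbp2 (chromosome 1, 72824503 to 72852474), a neighbour of Igfbp5, had 4, 0 and 0 counts in the control hearts, 16, 0 and 0 in TAC and 15, 0 and 3 in KO-TAC hearts. It was too low for a test. Where a count of 0 was found, 3 counts are the limit that it allows, which is 0.0347 to 0.0468 CPM in the TAC and control hearts with 0 counts and 0.0422 CPM in KO-TAC replicate 2, for counting error only.

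**Figure D2:**
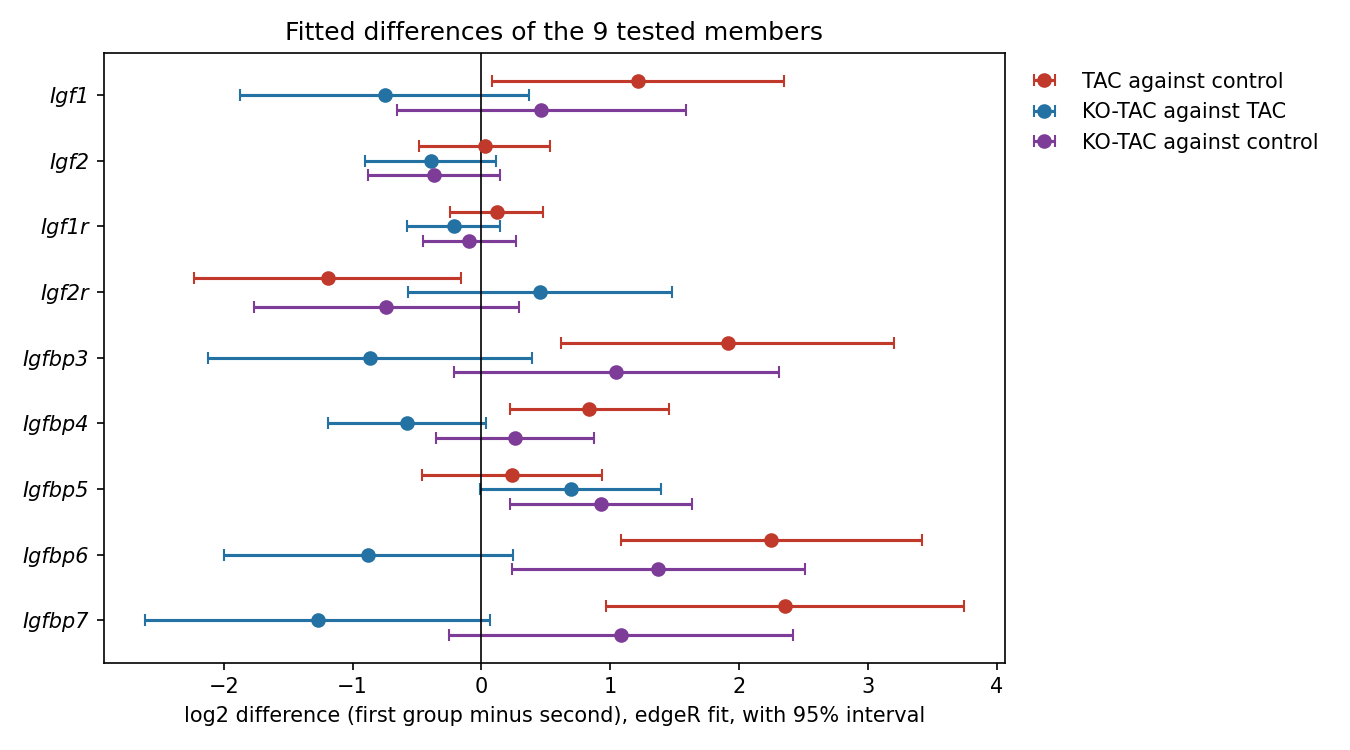
Fitted log2 differences (x axis, first group minus second) of the 9 tested members (y axis) in the 3 comparisons, with 95% intervals from the edgeR fit (t distribution, not adjusted for the number of genes). In TAC against control the intervals of Igf1, Igfbp3, Igfbp4, Igfbp6 and Igfbp7 lie above 0 and that of Igf2r below 0, while in KO-TAC against TAC all 9 intervals include 0.

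**Figure D3:**
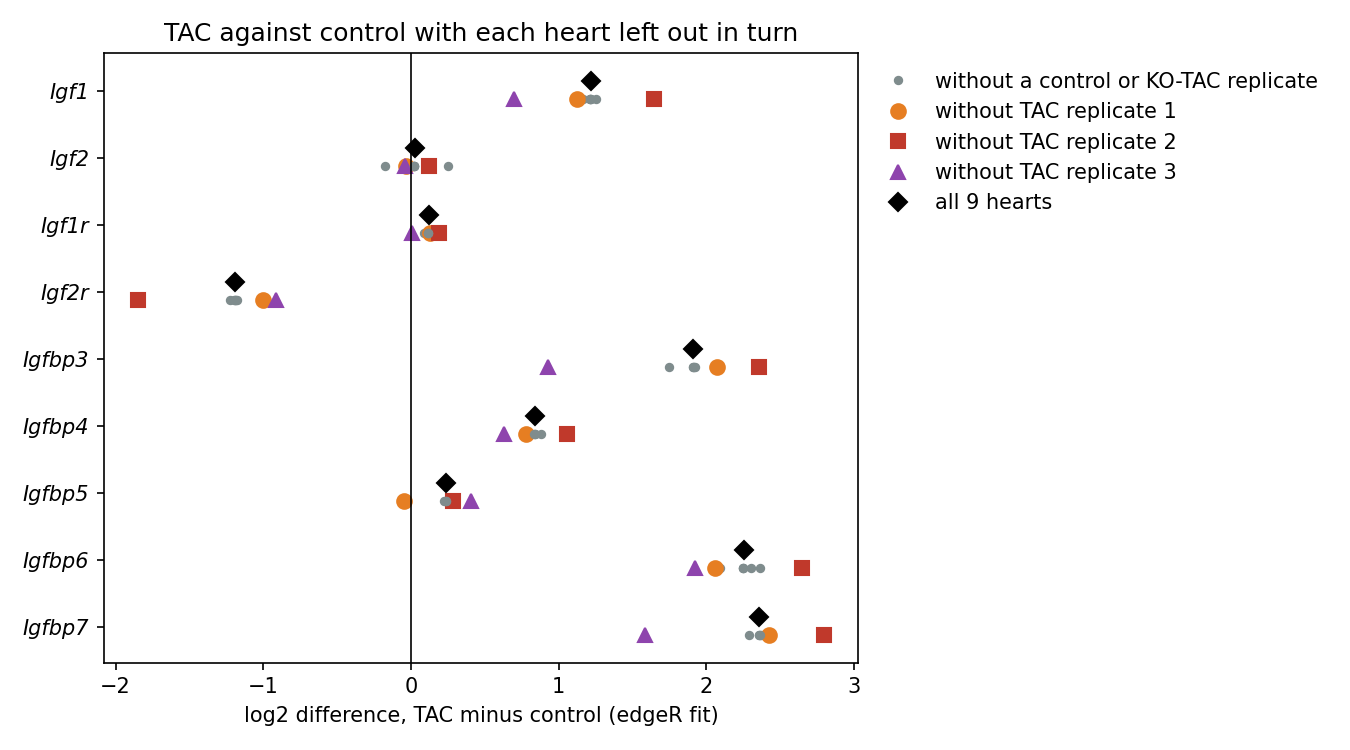
Log2 difference of TAC from control (x axis) for each tested member (y axis) with all 9 hearts (diamonds) and with each heart left out in turn. Leaving out TAC replicate 2 (squares) gives the values farthest from 0 for Igf1, Igf2r, Igfbp3, Igfbp4, Igfbp6 and Igfbp7, and leaving out TAC replicate 3 (triangles) the values nearest to 0 for them.

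Relative to the control mean, Igfbp7 was 2.21, 0.52 and 3.23 higher on the log2 scale in TAC replicates 1, 2 and 3, Igfbp6 was 2.59, 0.8 and 2.75 higher, and Igf2r differed by -1.68, -0.4 and -2.02. For these 3 genes, as for Igf1, Igf1r, Igfbp3 and Igfbp4, TAC replicate 3 was farthest from control and TAC replicate 2 nearest. The activated fibroblast, cardiomyocyte and endothelial markers had the same order, as did the sparse lymphocyte and lung markers. The resting fibroblast, macrophage, and smooth muscle and pericyte markers did not have it. Nor did the neutrophil, epicardial, adipocyte, skeletal muscle and liver markers. The median of the 6 activated fibroblast markers (Postn, Cthrc1 and others) exceeded the control mean by 3.05, 0.58 and 4.7 on the log2 scale in TAC replicates 1, 2 and 3, and the median of the 8 cardiomyocyte markers was -1, 0.05 and -2.53. For the 8 endothelial markers it was 0.83, -0.14 and 0.95. All 6 activated fibroblast markers had a higher mean in TAC than in control hearts, and their summed level ran from 38.7 to 55.8 CPM in control, 73.1 to 1439 CPM in TAC and 60.9 to 336 CPM in KO-TAC hearts. None of the 8 cardiomyocyte markers was higher in TAC by its mean, with sums of 66586 to 68669 CPM in control, 11466 to 69189 CPM in TAC and 33818 to 59400 CPM in KO-TAC hearts. Resting fibroblast markers (8 of 8 higher by mean in TAC) summed to 1255 to 1441 CPM in control, 1349 to 2499 CPM in TAC and 1540 to 1671 CPM in KO-TAC hearts. Endothelial markers (7 of 8 higher) summed to 807 to 842, 723 to 1638 and 790 to 969 CPM in the same groups. Macrophage markers (5 of 8 higher) summed to 155 to 167, 146 to 348 and 157 to 245 CPM. Smooth muscle and pericyte markers (4 of 8 higher) summed to 1205 to 1241, 558 to 1037 and 829 to 1174 CPM. Each of these markers had more than 3 counts in at least 1 library, and their part in the differences of the IGF genes was not tested.

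**Figure D4:**
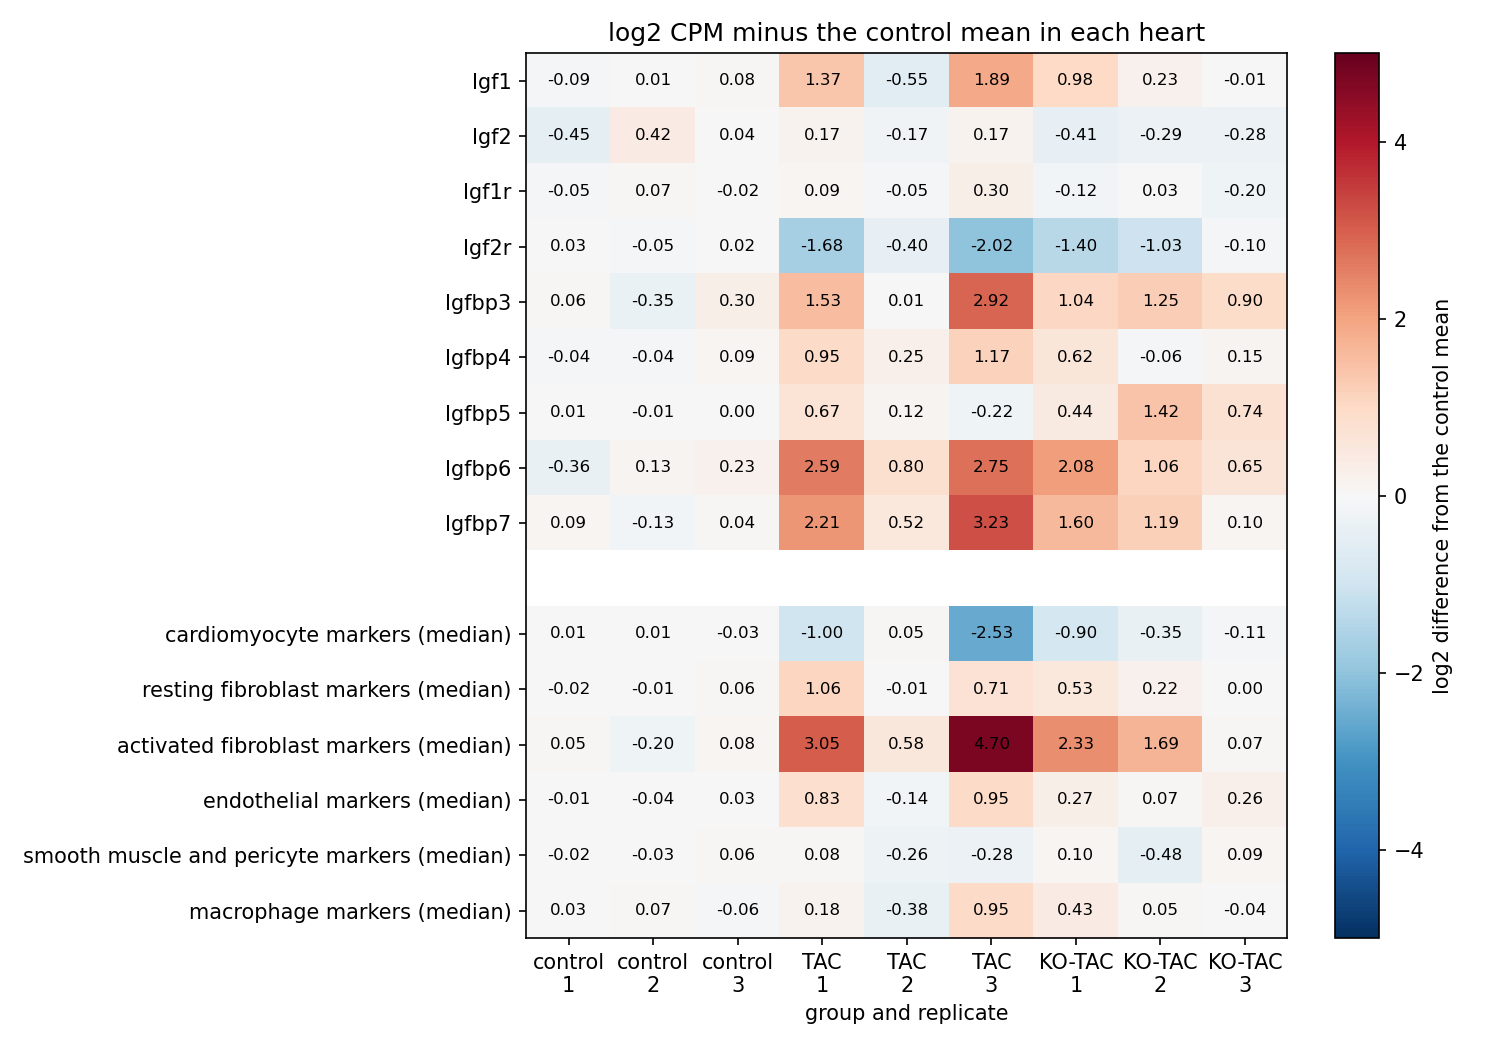
Log2 CPM minus the mean of the 3 control hearts, for the 9 tested members (upper rows) and the median of each of 6 cell-type marker lists (lower rows), in each heart (columns). Red is above and blue below the control mean. TAC replicate 2 stays within 0.8 of control for each member, whereas TAC replicate 3 reaches 3.23 for Igfbp7 and -2.02 for Igf2r.

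The make-up of the binding protein transcripts also differed between TAC and control hearts. Of the summed CPM per kb of the 6 binding proteins, Igfbp7 made up 64.7%, 60.6% and 60.9% in control hearts and 73%, 65.3% and 81.8% in TAC hearts. Each TAC heart was above each control heart. Igfbp5 made up 13.5%, 14.4% and 13% in control and 5.5%, 10.9% and 1.65% in TAC hearts, and Igfbp4 10.4%, 11.3% and 11.1% in control and 5.37%, 9.57% and 3.48% in TAC hearts. Both shares were lower in each TAC heart. The share of Igfbp3 was 4.94 ± 0.823% in control and 4.15 ± 0.936% in TAC hearts (SD, n = 3), with overlapping ranges. Without division by length Igfbp5, not Igfbp7, had the largest mean share in control hearts, at 35.6 ± 1.47% against 32.6 ± 1.52% (SD, n = 3), so the order of the shares there depends on the length correction. The sum itself was 114, 105 and 117 CPM per kb in control and 442, 152 and 795 CPM per kb in TAC hearts. Binding protein transcripts stood 36.3, 21.2 and 28.4 times above the summed ligands per length in control hearts and 72.1, 45.9 and 108 times above them in TAC hearts. With 3 hearts a group an exact permutation test cannot go below 0.1, so no test was made of these shares and ratios.

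**Figure D5:**
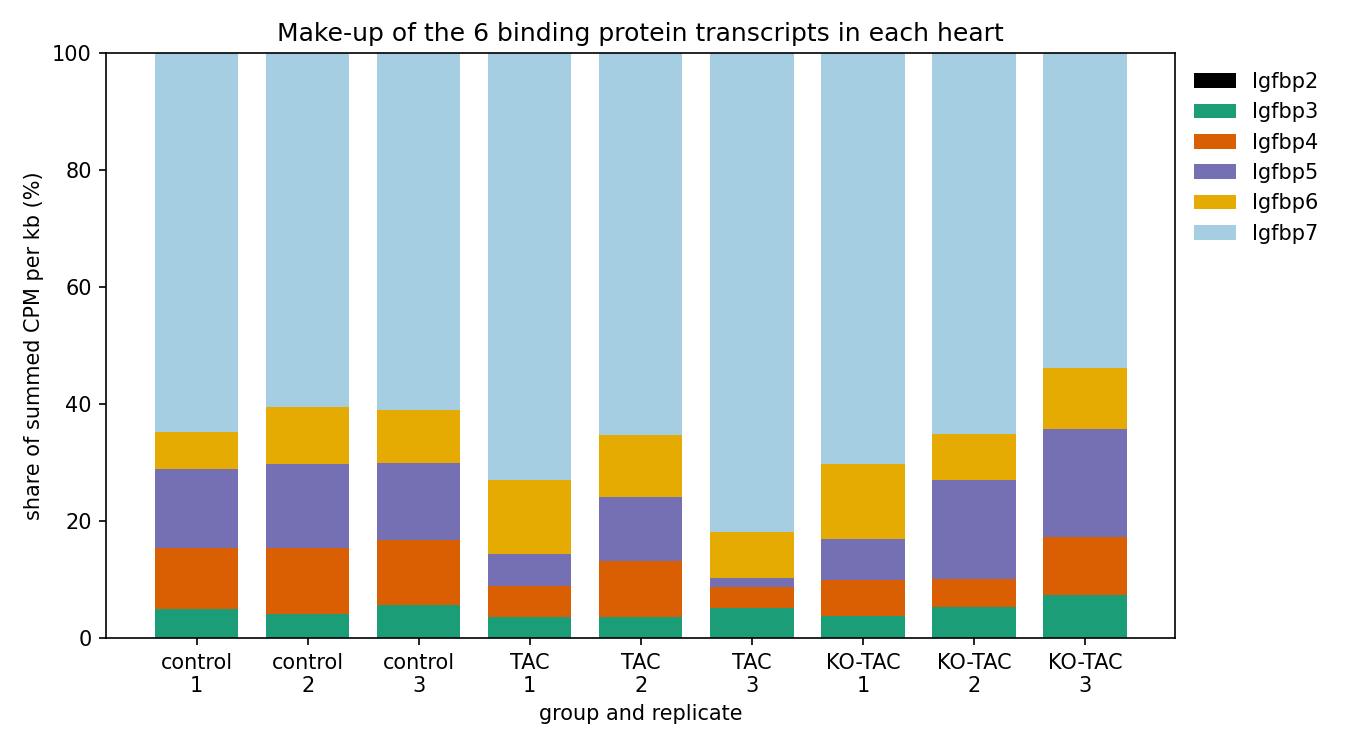
Share (y axis, percent, from 0 to 100) of each binding protein in the summed CPM per kb of the 6 binding proteins, in each heart (x axis, group and replicate). Igfbp7 takes 60.6% to 64.7% in control hearts and 65.3% to 81.8% in TAC hearts, while Igfbp5 takes 1.65% in TAC replicate 3 and takes 18.5% in KO-TAC replicate 3. Igfbp2 is too rare to be seen.

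KO-TAC was set against TAC to see how loaded hearts differ when fibroblasts lose Myc. By value 7 of 9 members were lower and 2, Igfbp5 and Igf2r, were higher, with a median log2 difference of -0.58 beside 0.01 over all genes. None of these differences passed the test (lowest edgeR adjusted p = 0.668), as 0% of genes passed. None had an unadjusted p under 0.05 either, beside 7.45% of genes. DESeq2 called no member (0.869% of genes). Limma-voom with quality weights called 2, Igfbp4 and Igfbp6, both lower, beside 5.23% of genes. Igf2 was the member whose groups did not overlap, lower in each KO-TAC heart, beside 4.8% of genes that were lower in this way, and no member was higher in each KO-TAC heart, beside 5.17% of genes. Since both comparisons use the same TAC hearts, a gene whose TAC mean is high by TAC replicate 3 is high against control and KO-TAC alike, and the opposite signs are not independent.

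Among the ligands, Igf1 was at 21.9, 13 and 11 CPM in KO-TAC hearts, against 28.6, 7.58 and 41 CPM in TAC. The KO-TAC hearts lay inside the TAC range. Its log2 difference was -0.75 (SE 0.5, 95% interval -1.87 to 0.37; edgeR adjusted p = 0.72). Igf2 was at 12.4, 13.5 and 13.6 CPM in KO-TAC hearts, just below the lowest TAC heart at 14.6 CPM and inside the control range. Its log2 difference from TAC was -0.39 (SE 0.23, 95% interval -0.9 to 0.12; edgeR adjusted p = 0.7).

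Of the receptors, Igf1r was at 29.2, 32.5 and 27.7 CPM in KO-TAC hearts, overlapping with TAC (log2 difference -0.21, 95% interval -0.58 to 0.15). Igf2r was at 87.2, 112 and 214 CPM in KO-TAC hearts. KO-TAC replicates 1 and 2 lay between TAC replicates 1 and 2, so the groups overlapped through TAC replicate 2. KO-TAC replicate 3 was above each TAC heart and close to the control hearts. The log2 difference of Igf2r from TAC was 0.45 (SE 0.46, 95% interval -0.57 to 1.48, edgeR adjusted p = 0.78), and without KO-TAC replicate 3 it was -0.01.

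Of the binding proteins, Igfbp7 was at 255, 192 and 90 CPM in KO-TAC hearts against 390, 120 and 786 CPM in TAC. The groups overlapped through TAC replicate 2. Igfbp7 was 2.42-fold lower (log2 difference -1.27, SE 0.6, 95% interval -2.61 to 0.07; edgeR adjusted p = 0.668), and the log2 difference was -0.50 without TAC replicate 3. Igfbp6 was at 43.3, 21.4 and 16.1 CPM in KO-TAC hearts, 1.84-fold below TAC (edgeR adjusted p = 0.697), and Igfbp4 at 83.3, 52 and 60.1 CPM, 1.49-fold below TAC (edgeR adjusted p = 0.668). The ranges of both overlapped with TAC. Igfbp3 was at 35.3, 40.8 and 32.2 CPM in KO-TAC hearts, a narrow range between TAC replicate 2 and TAC replicate 1. Its log2 difference of -0.86 (95% interval -2.12 to 0.39) rested on TAC replicate 3, without which it was 0.12.

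Among the tested binding proteins Igfbp5 was the one higher in KO-TAC than in TAC by value, and its difference did not pass. No test was made of Igfbp5 against the other binding proteins. Igfbp5 was at 124, 247 and 154 CPM in KO-TAC hearts, against 146, 100 and 78.8 CPM in TAC. The ranges overlapped through TAC replicate 1. The log2 difference was 0.69 (SE 0.31, 95% interval -0.01 to 1.39; edgeR adjusted p = 0.668), and it stayed between 0.36 and 0.97 with each heart left out. Within a heart, Igfbp7 stood 13.3, 5.99 and 49.6 times above Igfbp5 per length in TAC replicates 1, 2 and 3, 10.2, 3.86 and 2.91 times in KO-TAC replicates 1, 2 and 3, and 4.79, 4.2 and 4.67 times in control hearts. This ratio does not depend on the scaling of the libraries. It was above the control range in each TAC heart and in KO-TAC replicate 1.

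Cell-type markers differed among the KO-TAC hearts as well. The median of the activated fibroblast markers was 2.33, 1.69 and 0.07 over the control mean (log2) in KO-TAC replicates 1, 2 and 3, and that of the cardiomyocyte markers -0.9, -0.35 and -0.11. Igf1, Igf2, Igf2r, Igfbp6 and Igfbp7 had the same order of hearts, with KO-TAC replicate 1 farthest from control and KO-TAC replicate 3 nearest. The resting fibroblast, macrophage and sparse lung markers had this order too, while the endothelial and the smooth muscle and pericyte markers did not. By their means 0 of 6 activated fibroblast markers and 8 of 8 cardiomyocyte markers were higher in KO-TAC than in TAC hearts, and their part in the differences was not tested. Igfbp7 made up 70.2%, 65% and 53.8% of the binding protein transcripts per length in KO-TAC hearts and Igfbp5 6.88%, 16.9% and 18.5%, both overlapping with TAC. Per length, Igf1 stood at 0.502, 0.294 and 0.399 of Igf2 in control hearts. The ratio was 0.893, 0.299 and 1.28 in TAC and 1.02, 0.557 and 0.468 in KO-TAC hearts, so that all 3 groups overlapped.

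KO-TAC hearts were also set against control hearts, a comparison that joins load with deletion. By value 6 of 9 members were higher, with a median log2 difference of 0.47 beside 0.04 over all genes. None passed (edgeR adjusted p of 0.851 to 0.929), as 0% of genes passed, and none was called by DESeq2 (0.386% of genes). Igfbp5 and Igfbp6 had an unadjusted edgeR p under 0.05, beside 5.76% of genes. Limma-voom with quality weights called Igfbp3, Igfbp5, Igfbp6 and Igfbp7 as higher, beside 5.2% of genes. The same 4 were higher in each KO-TAC heart than in any control heart, beside 12.9% of genes, and Igf2r was lower in each, beside 13.6% of genes.

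Igfbp5 was 1.91-fold higher in KO-TAC than in control hearts (log2 difference 0.93, SE 0.31, 95% interval 0.23 to 1.63; edgeR adjusted p = 0.851), and Igfbp6 was 2.59-fold higher (log2 difference 1.37, SE 0.51; edgeR adjusted p = 0.851). Igfbp7 was 2.12-fold higher, with KO-TAC replicate 3 at 90 CPM just above the highest control heart at 89.3 CPM. Igfbp3 was 2.07-fold higher and Igf2r 1.67-fold lower. Igf1 (1.38-fold higher) and Igfbp4 (1.2-fold higher) overlapped with control. For Igf1r the log2 difference was -0.09 and turned to 0.14 when libraries were scaled by their totals alone, a scaling that shifted the median of all genes by 0.24.

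Other genes of the IGF system were described from lists of the pathway, and with all 9 hearts none of their genes passed the edgeR test in any comparison. Leaving out TAC replicate 2 changed this in TAC against control, where genes of all 5 lists then passed, beside 27.5% of all genes. Leaving out any other single heart gave no pass in these lists. Genes of IGF availability were 9 tested of 11. In TAC against control, DESeq2 called 2 of them as higher, Cilp and Pappa2, and none as lower, beside 7.61% of all genes. Without TAC replicate 2 the edgeR fit called 4 of the 9 as higher and 2 as lower. Cilp, a matrix protein that antagonises Igf1, was at 10.2, 4.6 and 8.34 CPM in control and 180, 9.56 and 263 CPM in TAC hearts, overlapping through TAC replicate 2 (19.5-fold higher; edgeR adjusted p = 0.136). Cilp without TAC replicate 2 was 28.5-fold higher (edgeR adjusted p = 0.0086), and without TAC replicate 3 it was 12.2-fold higher (edgeR adjusted p = 0.217). It was at 87.8, 106 and 19 CPM in KO-TAC hearts, above each control heart. Pappa2, a protease that frees IGFs by cutting Igfbp3 and Igfbp5, had no counts in control hearts and was at 0.213, 0.343 and 0.0463 CPM in TAC hearts, a very low level (named after its values were seen). Htra3, a secreted protease of the Htra family, was at 99.5 ± 19.4 CPM in TAC and 64.9 ± 3.76 CPM in control hearts (n = 3) without overlap. Htra1 (32.7 ± 25.2 against 63.7 ± 4.37 CPM) overlapped. Without TAC replicate 2, Htra3 passed as 1.67-fold higher (edgeR adjusted p = 0.0318) and Htra1 as 3.46-fold lower (edgeR adjusted p = 0.0104). Stc2, an inhibitor of Pappa, was lower in each TAC heart (10.5 ± 3.25 against 15.6 ± 1.06 CPM).

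Growth hormone signalling, the route by which Igf1 is induced in liver, was covered by 6 genes, 3 higher and 3 lower by value in TAC hearts (median log2 difference -0.34, beside 0.03 over all genes). Without TAC replicate 2, 3 of the 6 passed as lower in edgeR and 0 as higher, beside 27.5% of all genes. Ghr, the growth hormone receptor, was at 130, 135 and 134 CPM in control and 58.5, 107 and 35.8 CPM in TAC hearts. Each TAC heart was lower, in the order of the hearts seen for Igf2r (1.98-fold lower; edgeR adjusted p = 0.182). Stat5b, a transcription factor of that route, was at 66.6, 74.4 and 70.1 CPM in control and 31.6, 58.5 and 28 CPM in TAC hearts, also without overlap (1.79-fold lower; edgeR adjusted p = 0.185). DESeq2 called 1 gene of the list, Stat5a, as lower (DESeq2 adjusted p = 0.0119; named after its values were seen), beside 7.61% of all genes. With TAC replicate 2 left out, Ghr was 2.83-fold lower (edgeR adjusted p = 0.011) and Stat5b 2.37-fold lower (edgeR adjusted p = 0.0127). Jak2 (34.8 ± 11.2 against 28.9 ± 0.502 CPM) and Cish (62 ± 46.8 against 55.9 ± 6.01 CPM) overlapped.

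Of the receptor signalling genes shared with insulin 22 of 23 were tested, and 17 of these 22 were lower by value in TAC hearts (median log2 difference -0.38). Without TAC replicate 2, 12 of the 22 passed as lower and 1 as higher in edgeR, against 0 with all hearts and beside 27.5% of all genes. The median was then -0.76, against -0.32 without TAC replicate 1 and -0.24 without TAC replicate 3. Inppl1, a lipid phosphatase that opposes the kinase pathway, was lower in each TAC heart, at 117 ± 28.5 against 186 ± 10.8 CPM (1.59-fold; edgeR adjusted p = 0.202). Akt2, the insulin-linked Akt kinase, was at 62.4, 140 and 33.1 CPM in TAC against 139 to 153 CPM in control hearts, overlapping at TAC replicate 2, without which it was 3.09-fold lower (edgeR adjusted p = 0.0138). Akt1 (131 ± 50.2 against 161 ± 9.06 CPM) and the adaptor Grb2 (46.4 ± 19.2 against 66.7 ± 5.69 CPM) overlapped too. Inppl1, Akt1 and Grb2 were among those that passed as lower without TAC replicate 2, at 1.80-fold, 1.58-fold and 1.86-fold. In KO-TAC against TAC 13 of 22 were higher by value (median 0.04), and in KO-TAC against control 19 of 22 were lower (median -0.33).

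FoxO-induced genes are those that IGF and insulin signalling represses. In TAC against control 10 of 11 were lower by value (median log2 difference -0.32), and DESeq2 called 1 of the 11 as lower, Pik3ip1, an inhibitor of the lipid kinase, beside 7.61% of all genes. DESeq2 also called Pik3ip1 as higher in KO-TAC than in TAC, beside 0.869% of all genes (named after its values were seen). In TAC against control 3 of the 11 passed as lower in edgeR without TAC replicate 2, beside 27.5% of all genes. Trim63 was among them at 3.11-fold (edgeR adjusted p = 0.0252). Pik3ip1 was at 52.6, 51.8 and 53.3 CPM in control, 34.2, 31.7 and 21.9 CPM in TAC and 60.4, 61.1 and 45.3 CPM in KO-TAC hearts. Each TAC heart was below every heart of the other groups. In KO-TAC against TAC its DESeq2 adjusted p was 0.0191 and its edgeR adjusted p 0.361. Trim63, a muscle ubiquitin ligase, was at 160, 138 and 156 CPM in control and 73.5, 143 and 24.3 CPM in TAC hearts, and Sod2 at 496, 491 and 478 CPM against 255, 533 and 44 CPM. Both overlapped through TAC replicate 2, as did Bnip3 and Gabarapl1. Of the 12 tested genes of Igf2 RNA regulation and imprinting (15 listed), 8 were higher by value in TAC hearts. Without TAC replicate 2, 2 passed as higher in edgeR, beside 27.5% of all genes. Ndn was among them (2.02-fold, edgeR adjusted p = 0.0164). H19, the imprinted neighbour of Igf2 that shares its enhancers, was at 10.9, 21.1 and 13.8 CPM in control and 3.35, 8.34 and 9.54 CPM in TAC hearts. Each TAC heart was lower (2.15-fold; edgeR adjusted p = 0.295), while Igf2 itself stayed inside the control range. Cdkn1c, an imprinted cell cycle inhibitor, was higher in each TAC heart, at 21.8 ± 1.65 against 15.7 ± 1.02 CPM, and Mest (14.4 ± 14.2 against 5.14 ± 2.65 CPM) and Ndn (7.75 ± 3.67 against 4.74 ± 0.638 CPM) overlapped.

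In KO-TAC against TAC, 7 of 9 genes of IGF availability were lower by value (median log2 difference -0.56) and 10 of 11 FoxO-induced genes were higher (median 0.2), beside a median of 0.01 over all genes. Growth hormone signalling had 3 higher and 3 lower (median 0.12), and 9 of 12 genes of the Igf2 and imprinting list were lower (median -0.25). These counts use the TAC hearts that also enter the comparison with control.

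The genes whose pattern over the 9 hearts was most like that of a member were found by the root mean square difference of log2 CPM, each gene centred on its own mean, among 12392 genes. Pi16, a secreted protein of adventitial fibroblasts, was nearest to Igfbp7 (0.162, where the deviation of Igfbp7 itself was 1.1), followed by Fxyd5 (0.174). Mmp23 (0.196) and Mgp (0.298), the matrix Gla protein that restrains calcification, were nearest to Igfbp6. Hyi (0.189) and Rnd1 (0.214) were nearest to Igfbp3, and Rab13 (0.144) and Setd4 (0.149) to Igf1. For Igf2r they were Lmtk2 (0.0801) and Nt5dc2 (0.117), with Lmtk2 at 49.4 CPM in control and 22.5 CPM in TAC hearts on average. Hspb3 (0.157), a small heat-shock protein of muscle, and Hdhd3 (0.189) were nearest to Igfbp5, and Srsf9 (0.0907) and Plscr2 (0.0972) to Igfbp4. Prdm4 (0.0518) and Ipo9 (0.0664) were nearest to Igf1r, and Dolpp1 (0.163) and Kctd13 (0.169) to Igf2. Among the members themselves Igfbp6 and Igfbp7 were nearest to each other (0.359), and the nearest member to Igf2r was as far as 0.848. These are descriptions over the same 9 libraries, and say nothing of a shared control.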

How the data were processed

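Libraries were prepared from Trizol-extracted total RNA using a kit that keeps the strand, per the labels' protocols. The authors deposited 1 table of whole-number counts, 1 row for each gene symbol, with totals that differ between libraries and no sign of normalization. The submitters' processing notes name DESeq2 (1.42.0), StringTie (2.2.1), HISAT2 (2.2.1), SAMtools (1.15), Trim Galore (0.6.10) and, as builds, mm10 and GRCm38. What counted the reads, on which annotation and with which strand setting, is not given there, so overlapping and antisense genes are uncertain.

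Groups came from the sample titles. All 9 libraries entered 1 edgeR 4.0.16 fit (R 4.3.3; glmQLFit, glmQLFTest, two-sided, TMM, filterByExpr with a minimum count of 10) with the group as the only term. Benjamini-Hochberg adjustment ran over the 19051 genes kept, with a threshold of 0.05. The SE is the log2 difference divided by the root of F. The fit was also run on counts simulated from the means and spread of these libraries, which checks the code and not the results. Per-kb levels divide by the exon length of GENCODE M21 genes (GRCm38). Log2 CPM used a prior count of 2. For repeated symbols, the row with the largest total carried the symbol. Promoters are from RefSeq. Alternatives were other scalings, filters and tools (DESeq2 1.42.0, limma 3.58.1), a replicate block and each library left out.

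The 10 members and the lists were chosen with earlier results of these data known. Named pathway genes were the 4 of each list with the highest mean CPM per kb, and named neighbours the nearest 2 genes of each member with a mean of at least 1 CPM.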

Additional observations from a re-analysis of the deposited data

How the results depend on the processing

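In TAC against control, no gene passed in edgeR with all 9 hearts, 1491 passed in DESeq2 and 7230 in limma-voom with quality weights, and leaving out 1 heart gave 0 to 5477, with 5477 without TAC replicate 2. Of the members 3 passed in DESeq2, 7 in limma-voom and 0 to 6 with 1 heart left out. In KO-TAC against TAC 185 genes passed in DESeq2 and 996 in limma-voom, with 0 to 13 when 1 heart was left out, and 2 members passed in limma-voom. In KO-TAC against control 80 genes passed in DESeq2, 991 in limma-voom, 2 with no low-count filter and 30 in a fit to only the 2 groups, with 0 to 4 when 1 heart was left out, and 4 members passed in limma-voom. In both KO-TAC comparisons 0 members passed with any 1 heart left out. With the replicate number as a block 0 genes and 0 members passed in each comparison. Deviations of same-numbered hearts correlated at -0.255 to 0.124, beside -0.434 to 0.355 for the others, so the numbers were not taken to pair hearts. These numbers are those of the sample titles, while the deposited TAC columns are numbered 2, 3 and 4. By column number TAC replicate 1 goes with KO-TAC replicate 2 (-0.00835) and TAC replicate 2 with KO-TAC replicate 3 (0.327). In the same way TAC replicate 1 goes with control replicate 2 (-0.00665) and TAC replicate 2 with control replicate 3 (-0.00137). No fit used the column number as a block.

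With 1 heart left out, the log2 difference in TAC against control ran from -0.18 to 0.25 for Igf2 and from -0.044 to 0.41 for Igfbp5. In KO-TAC against TAC it ran from -0.011 to 1.11 for Igf2r and from -1.31 to 0.12 for Igfbp3. Igf1r in KO-TAC against control turned from -0.09 to 0.14 under library size alone. The causes were not tested. Of the other single-gene values 511 kept their direction and side of the threshold and 22 newly passed. Without division by length the mean share of Igfbp7 in TAC hearts was 51.9% in place of 73.4%. In control hearts it was then 32.6% in place of 62.1% and that of Igfbp5 35.6% in place of 13.7%, and in TAC hearts the share of Igfbp5 was 19.1% in place of 6.02%. In KO-TAC hearts Igfbp7 took 35.8% in place of 63% and Igfbp5 37.1% in place of 14.1%. The order of levels in control hearts was the same for 10 of 10 members with the longest transcript or RLE factors.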
